A study of Mus musculus with 6 samples.

Results

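Messenger RNA of 10 genes that answer to, or belong to, 2 sensors of foreign and reactive chemicals was examined in mouse adipose tissue. The genes are Nqo1, Hmox1, Gclc, Gclm, Txnrd1 and Srxn1, classical targets of the transcription factor NRF2, and Ahr, Ahrr, Tiparp and Cyp1b1, which encode the aryl hydrocarbon receptor (AHR) and products of its target genes. They were chosen by symbol from the deposited table of 19928 genes, and all 10 were found. The study compared 3 adipose tissue samples of KM mice labelled with a control diet with 3 samples of KM mice fed radix Angelica sinensis (RAS), a medicinal root, at a dose of 10.00 g per kg body weight. By the title of the series, the mice had a high-fat diet. The sources used here do not give the fat depot, the sex, the age, or whether a sample came from 1 mouse or several. The p-values therefore reflect only how far these samples spread. Because the samples are bulk tissue, fewer cells of a type and less RNA per cell cannot be told apart.

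As background, NRF2 (gene Nfe2l2) is held in the cytoplasm and degraded through KEAP1. Electrophiles and oxidants modify KEAP1, NRF2 then enters the nucleus, pairs with a small MAF protein and binds antioxidant response elements, where BACH1 competes with it. AHR waits in the cytoplasm with HSP90, binds planar aromatic ligands, pairs with ARNT and binds xenobiotic response elements. It induces the CYP1 enzymes and also its own brakes, AHRR and TIPARP. Phthalides and ferulic acid are known constituents of this root. Whether its feeding goes with a difference in these genes in fat is the comparison made here.

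The response elements are short and can be read directly in the promoters. RefSeq promoter windows (GRCm38.p6, 250 bases before to 50 after a start) were at hand for 7 of the 10 genes, with 9 windows in all, 3 of them for Txnrd1. The stretches below are shown because their letters match elements through which both sensors are known to act. Each is read 5′ to 3′ on the gene's own strand, with the match in capitals. A match on the opposite strand appears as its reverse complement.
Gclm, chr3:122245413-122245441, antioxidant response element core: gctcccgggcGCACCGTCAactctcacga
Txnrd1, chr10:82859104-82859132, antioxidant response element core: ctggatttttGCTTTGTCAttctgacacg
Srxn1, chr2:152105469-152105497, relaxed antioxidant core: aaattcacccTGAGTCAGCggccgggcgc
Ahrr, chr13:74292424-74292448, xenobiotic core: ttgaaagggcGCGTGgcaggcaggg
Ahrr, chr13:74292399-74292423, xenobiotic core: acaaggatgtGCGTGcgccctctgc
Ahrr, chr13:74292344-74292368, xenobiotic core: ggggcggctcGCGTGctggggtggg
Tiparp, chr3:65528267-65528291, xenobiotic core: ccgtccggagCACGCgcacgggagg
Cyp1b1, chr17:79715123-79715147, xenobiotic core: tcccgcccctCACGCcccaccccct

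The antioxidant core TGACNNNGC, searched on both strands, was held by 3 of the 9 windows (1 each of Gclm, Txnrd1 and Srxn1) and by 12.4% of all 32851 promoter windows. The Gclm match began 134 bases before the start, the Txnrd1 match 92 bases before 1 of its 3 starts, and the Srxn1 match 29 bases after its start. The relaxed form TGANNNNGC, which includes every match of the first, was held by 6 of the 9 windows, from 5 of the 7 genes, and by 41.3% of all windows. The windows of Nqo1 and Cyp1b1 held no relaxed match. The Srxn1 match printed above lay 45 bases before the start. The xenobiotic core GCGTG was held by 8 of the 9 windows, from 6 of the 7 genes, all but Nqo1, and by 32.4% of all windows. Ahrr held 3 of these cores, beginning 107, 82 and 27 bases before its start, and all lay on the strand of the gene. Cyp1b1 and Tiparp held 1 each. The window of the NRF2 target Nqo1 thus held no match of any of these forms. The NRF2 target Gclm held xenobiotic cores as well, beginning 238, 187 and 12 bases before its start, and so did Srxn1 and Txnrd1. Ahrr and Tiparp in turn held relaxed antioxidant matches. The xenobiotic core and the relaxed form were thus not particular to the genes of 1 sensor. The windows end close to the start, and the letters alone do not show a bound site.

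Expression was read as FPKM (fragment counts scaled by transcript length and library depth), which is comparable between genes because it is scaled by length. The 6 libraries held an estimated 14.4 to 15.7 M assigned reads. RAS 3 and control 1 lay at the ends of the first principal component, at 34.5 and -24.4, with the others between -8.36 and 1.2. Fat cell markers were abundant in every library: the summed FPKM of 8 of 8 was 32800 to 37100 in control and 42400 to 61900 with RAS, and none was at 0. Fabp4, the fatty acid binding protein of fat cells, carried these sums, at 20821 to 26447 and 30163 to 45586. Without it they were 10636 to 12028 and 9839 to 16322 and overlapped. By mean log2 value, 6 of the 8 were higher with RAS and 2 lower. Ranges were apart and higher for 3 of the 8, against 5.42% of all genes tested below. These were Fabp4, Cidec (1640 to 2023 in control and 2183 to 2588 with RAS) and Lipe (545 to 583 and 591 to 664). Lep, which encodes leptin, was the 1 apart on the lower side, at 424 to 615 in control and 293 to 334 with RAS. Genes with a mean of at least 1 FPKM were tested with limma on log2(FPKM + 1), 12606 in all, with Benjamini-Hochberg adjustment over all of them. Of these, 0 passed an adjusted p of 0.05 (0%), the smallest was 0.138, and 1294 (10.3%) had an unadjusted p under 0.05. Log2 differences of single genes below are RAS minus control of log2(FPKM + 1), and the added 1 shrinks the differences of genes with low values. Summed over 3 of 3 beige and brown fat markers, RAS 3 stood at 395 FPKM and the other libraries at 1.45 to 76.4. Ranges were apart and higher with RAS for 2 of the 3, against 5.42% of all genes tested. These were Cidea (1.38 to 42.4 in control and 46.8 to 218 with RAS) and the low Elovl3 (0.029 to 0.22 and 0.53 to 13.8). Ucp1 was at 163 in RAS 3 and at 0.0343 to 33.8 in the other libraries.

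No gene of the set passed the test: 0 of the 9 that could be tested had an adjusted p under 0.05 in limma. By unadjusted p under 0.05 there was 1, Cyp1b1, on the lower side, where 6.41% of all genes tested lay. Of the 9, 4 had a higher mean log2 value with RAS (43% of all genes tested did) and 5 a lower one (57%), and their median difference was -0.04, the same as the median over all genes tested (-0.04). In FPKM, control and RAS libraries had separate ranges for 3 of the 9 (Ahr higher, Cyp1b1 and Txnrd1 lower), against 17.9% of all genes tested, 5.42% higher and 12.5% lower. In the authors' scaled count signal, the other measure in the table, ranges were separate for 1 of the 9, Ahr, against 17.1% (7.97% higher). The signs were thus mixed within the set.

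**Figure D1:**
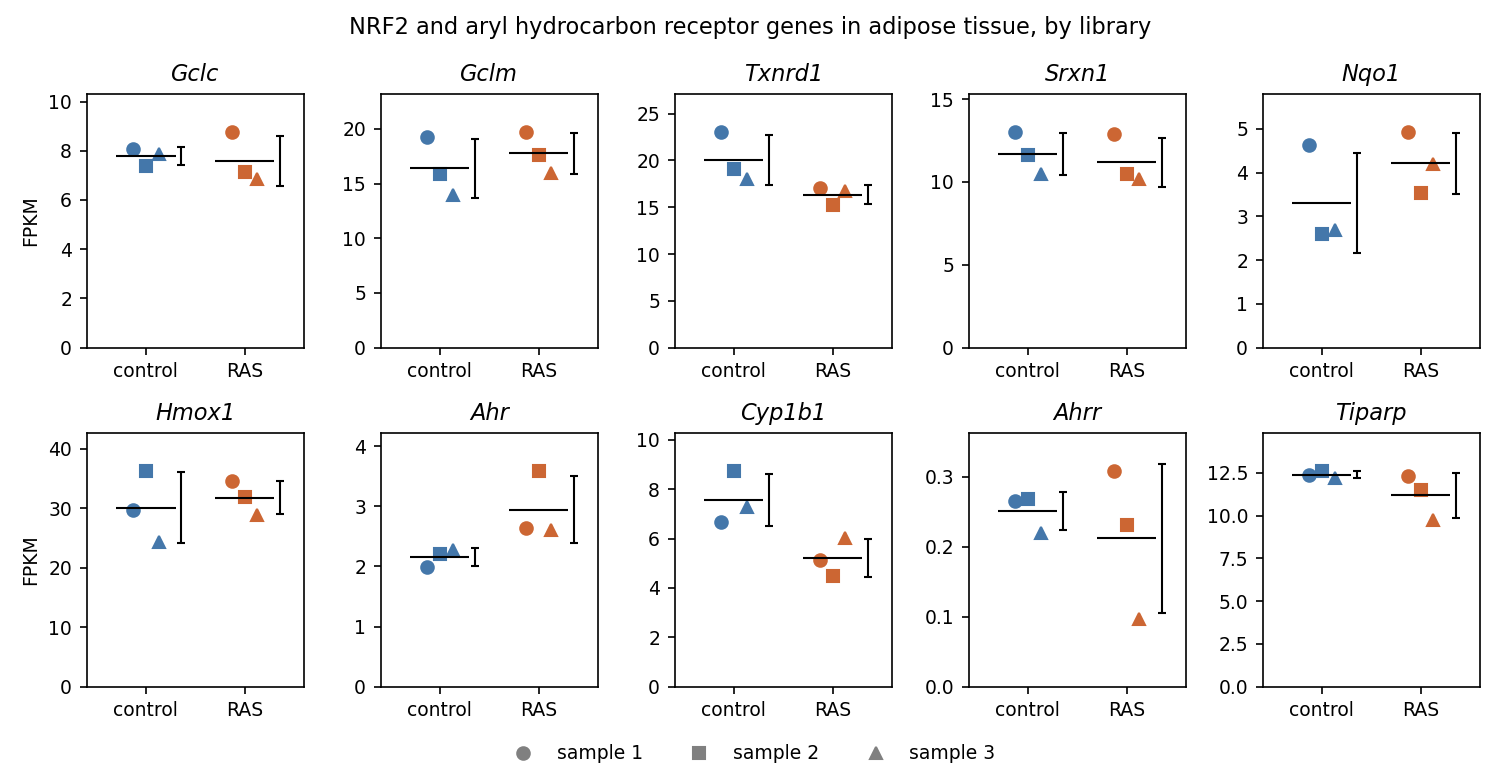
FPKM of the 10 genes in each library (points; shape gives the sample number), with the mean (line) and SD (bar) of the 3 libraries of each group and every axis starting at 0. Ahr lay higher in all 3 RAS libraries and Cyp1b1 and Txnrd1 lower, while the groups overlapped for the other 7 genes.

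By level over the 6 libraries, Hmox1 stood highest at a mean of 30.9 FPKM, above every value of the next gene. Txnrd1 (18.2) and Gclm (17.1) followed and overlapped. Below them came Tiparp (11.8) and Srxn1 (11.5), which overlapped as well. Gclc (7.69), Cyp1b1 (6.39), Nqo1 (3.76) and Ahr (2.55) each overlapped with the next in that order. Ahrr was the lowest by far, at 0.231 FPKM, and lay apart from Ahr in every library.

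Ahr, the receptor itself (NCBI gene 11622; chromosome 12, 35497979 to 35534989), was at 1.99, 2.20 and 2.27 FPKM in controls 1, 2 and 3 and at 2.64, 3.58 and 2.60 in RAS 1, 2 and 3. The lowest RAS library lay above the highest control library, and RAS 2 stood above the other 5. The means were 2.15 ± 0.145 and 2.94 ± 0.554 (SD, n = 3 per group, here and below), a log2 difference of 0.31 ± 0.14 (SE) with a 95% interval from -0.01 to 0.64 and a limma adjusted p of 0.493. In an exact permutation test over the 6 samples p was 0.10, two-sided, the smallest this design allows (0.33 adjusted over the 10 genes). The gene rested on an estimated 207 to 385 reads per library. Without RAS 2 the difference was 0.20.

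Cyp1b1, a monooxygenase of polycyclic aromatic compounds and steroids that AHR induces (NCBI gene 13078; chromosome 17, 79706953 to 79715041), stood on the other side. It was at 6.67, 8.73 and 7.29 FPKM in controls 1 to 3 and at 5.14, 4.47 and 6.04 in RAS 1 to 3. Every RAS library was below every control library, and RAS 2, the library with the most Ahr, had the least Cyp1b1. The means were 7.56 ± 1.06 and 5.21 ± 0.787, a log2 difference of -0.46 ± 0.14 with an interval from -0.79 to -0.13. Its unadjusted p in limma was 0.0126 and its adjusted p 0.369, with an exact permutation p of 0.10. In the scaled count signal the groups met, since control 1 (603.8) lay under RAS 3 (621.8). Across all 16 alternatives the difference lay between -0.63 and -0.37.

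Cyp1b1 is known from stromal and mural cells, so their markers are given beside it. The summed FPKM of 6 of 6 smooth muscle and pericyte markers was 351 to 465 in control and 279 to 338 with RAS, and that of 8 of 8 fibroblast markers was 1550 to 2090 and 1220 to 1870, with no marker of either list at 0. The smooth muscle sums were apart in the same direction as Cyp1b1. However, ranges were apart and lower for only 1 of the 6 markers, Acta2, against 12.5% of all genes tested. Acta2 and Tagln made up most of the sum. By mean log2 value, 5 of the 6 were lower with RAS (57% of all genes tested were) and 1 higher. Their median log2 difference was -0.56, against -0.04 over all genes tested. The pericyte marker Rgs5 was at 65.2, 48.1 and 37.0 FPKM in control and 47.7, 32.0 and 19.2 with RAS. Pdgfrb, another pericyte marker and the 1 on the higher side, was at 22.2, 25 and 22.3 FPKM in control and 28.9, 26.5 and 16.9 with RAS. The fibroblast sums overlapped, and 0 of those 8 markers had ranges apart. By mean log2 value, 6 of the 8 fibroblast markers were lower with RAS and 2 higher, with a median difference of -0.20. The part of either marker list in the Cyp1b1 values was not tested.

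The genes whose pattern over the 6 libraries was most like that of Cyp1b1, among 8647 genes with a mean of at least 5 FPKM, were Ppp3cb, a calcineurin catalytic subunit (Pearson r = 0.974 of log2 values), E330013P06 (r = 0.971) and the glycosyltransferase gene B3galnt1 (r = 0.967). A high r does not mean differences of like size. Ppp3cb ran only from 12.3 to 14.2 FPKM, E330013P06 from 5.51 to 11.9 and B3galnt1 from 11.7 to 16.2. With 6 libraries and so many candidates, 13 genes exceeded an r of 0.95. Cyp1b1 was used for this because it had the smallest unadjusted p of the set.

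Ranges overlapped for both feedback genes. Tiparp, an ADP-ribosyltransferase that represses AHR (NCBI gene 99929; chromosome 3, 65527483 to 65560603), was at 12.4, 12.6 and 12.2 FPKM in the controls and at 12.3, 11.5 and 9.75 with RAS. The controls were tightly grouped and RAS 3 was the low library. The means were 12.4 ± 0.165 and 11.2 ± 1.30, with a log2 difference of -0.14 ± 0.11 (interval -0.41 to 0.12, limma adjusted p = 0.687). Without RAS 3, and also without control 1 and RAS 3 together, it was -0.06, and in the scaled count signal -0.04. Ahrr, the repressor that competes with AHR for ARNT (NCBI gene 11624; chromosome 13, 74211118 to 74292309), was at 0.265, 0.268 and 0.220 FPKM in the controls and 0.308, 0.231 and 0.0968 with RAS. It rested on an estimated 9 to 28 reads per library and lay under the minimum of 1 FPKM, so it was not tested across genes. RAS 1 was its highest library and RAS 3 its lowest, so the RAS libraries enclosed all controls (exact permutation p = 0.80).

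Because a ratio of 2 genes within 1 library does not depend on how that library was scaled, the 36 ratios among the 9 tested genes were also formed, after the values were known. The groups were apart for 9 of the 36, against 17.1% of all pairs of tested genes that were above 0 in every library. Of the genes whose own ranges were apart, Ahr and Txnrd1 were each in 4 of the 9 and Cyp1b1 in 2. The ratio of Cyp1b1 to Ahr was 3.35, 3.97 and 3.21 in the controls and 1.95, 1.25 and 2.32 with RAS, a log2 difference of -0.97. Ahr was higher and Cyp1b1 lower in every RAS library, so the separation of this ratio was already fixed by the single genes and adds no support to them. Tiparp to Ahr was 6.24, 5.70 and 5.39 against 4.67, 3.20 and 3.75 (log2 -0.59). Both log2 differences were taken on the ratios without the added 1, so they are not on the scale of the single genes. In the scaled count signal both ratios were apart too. The smallest exact p possible here is 0.10, or 0.36 after Benjamini-Hochberg adjustment over the 36.

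**Figure D2:**
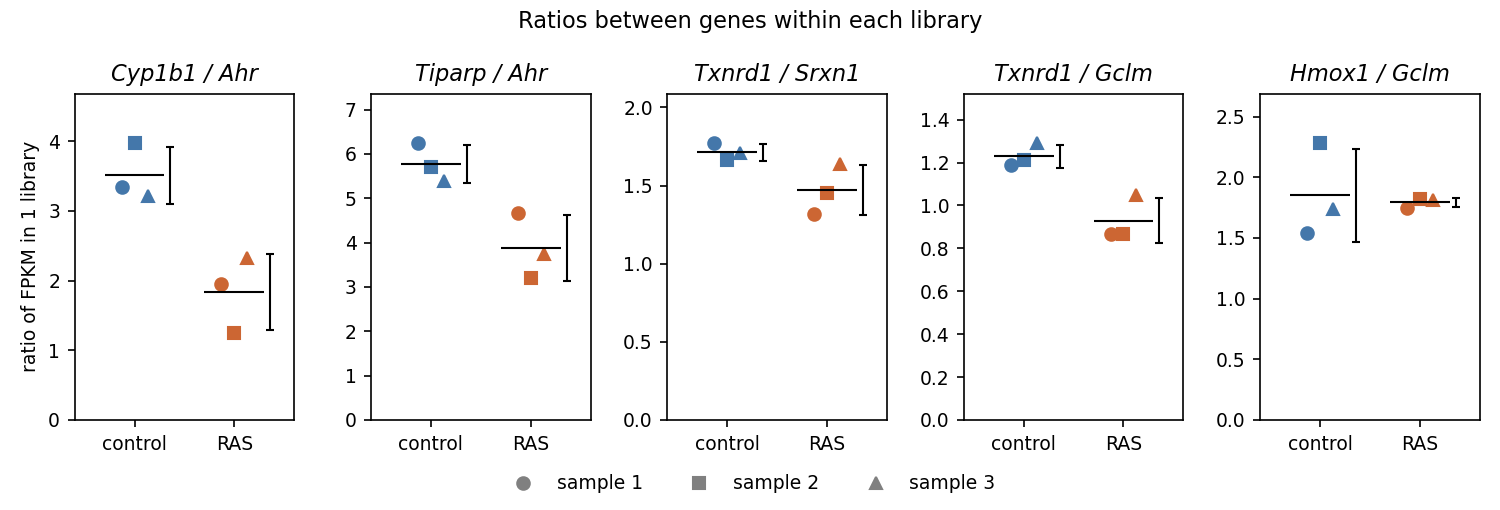
Ratio of FPKM between 2 genes within each library, by group (points; shape gives the sample number), with the mean (line) and SD (bar) of 3 libraries and axes from 0. Cyp1b1 to Ahr lies at 3.21 to 3.97 in control and at 1.25 to 2.32 with RAS, and Hmox1 to Gclm, shown for contrast, overlaps.

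Among the NRF2 targets, the genes of glutathione synthesis had overlapping ranges. Gclc encodes the catalytic and Gclm the modifier subunit of glutamate-cysteine ligase, the rate-limiting enzyme of that pathway. Gclc (NCBI gene 14629; chromosome 9, 77754535 to 77794489) was at 8.09, 7.40 and 7.88 FPKM in the controls and 8.75, 7.13 and 6.87 with RAS. The RAS libraries lay on both sides of the controls, and the log2 difference was -0.04 ± 0.12 (interval -0.31 to 0.23, limma adjusted p = 0.926). Gclm (NCBI gene 14630; chromosome 3, 122245592 to 122293549) was at 19.3, 15.9 and 14.0 in the controls and 19.7, 17.6 and 16.0 with RAS, a log2 difference of 0.12 ± 0.15 (interval -0.23 to 0.46, adjusted p = 0.80). It was 0.02 without control 3, 0.04 without RAS 1, 0.23 without control 1, 0.19 without RAS 3 and 0.30 without control 1 and RAS 3 together. Control 1 and RAS 1 were the high libraries of both groups, and the groups overlapped. The ratio of Gclm to Gclc was 2.1 ± 0.306 in control and 2.35 ± 0.109 with RAS (exact permutation p = 0.30).

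Of the thiol reductases, Txnrd1 had separate ranges and Srxn1 did not. Txnrd1, the cytosolic selenoenzyme that reduces thioredoxin (NCBI gene 50493; chromosome 10, 82833951 to 82897724), was at 23.0, 19.1 and 18.0 FPKM in the controls and 17.1, 15.2 and 16.7 with RAS. Control 1 was the highest library, and all RAS libraries lay below control 3. The means were 20 ± 2.61 and 16.4 ± 0.993, with a log2 difference of -0.27 ± 0.12 (interval -0.56 to 0.02, limma adjusted p = 0.510, exact permutation p = 0.10). In the scaled count signal the groups met, with control 3 at 1049 and RAS 1 at 1052. Without control 1 the difference was -0.17.

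Srxn1, sulfiredoxin, which restores overoxidised peroxiredoxins (NCBI gene 76650; chromosome 2, 152105730 to 152111353), was at 13, 11.6 and 10.5 FPKM in the controls and 12.9, 10.5 and 10.2 with RAS. The groups overlapped almost fully, with a log2 difference of -0.06 ± 0.13 (interval -0.36 to 0.25, limma adjusted p = 0.905). Set against it in the same library, Txnrd1 was lower with RAS: the ratio of Txnrd1 to Srxn1 was 1.77, 1.66 and 1.71 in the controls and 1.32, 1.45 and 1.64 with RAS. Txnrd1 to Gclm was 1.19, 1.21 and 1.29 against 0.868, 0.867 and 1.05. In both ratios all RAS libraries lay below all controls (exact permutation p = 0.10, 0.36 adjusted over the 36 ratios). Both ratios contain Txnrd1, whose own ranges were apart, so they are not independent of it.

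Nqo1, the quinone reductase that serves as the standard readout of NRF2 activity (NCBI gene 18104; chromosome 8, 107388225 to 107403205), was at 4.63, 2.59 and 2.69 FPKM in the controls and 4.92, 3.53 and 4.19 with RAS. Control 1 lay among the RAS libraries, above RAS 2 and RAS 3, and the other controls lay below all of them. The means were 3.30 ± 1.15 and 4.21 ± 0.696, a log2 difference of 0.30 ± 0.20 (interval -0.17 to 0.77, limma adjusted p = 0.647). The difference was 0.51 without control 1 and 0.19 without control 2. Nqo1 rested on an estimated 75 to 129 reads per library, the fewest among the NRF2 targets of the set, and counting noise adds to its spread.

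Hmox1, heme oxygenase 1, which breaks heme down to biliverdin, iron and carbon monoxide and is prominent in macrophages (NCBI gene 15368; chromosome 8, 75093618 to 75100593), was at 29.7, 36.2 and 24.3 FPKM in the controls and 34.5, 31.9 and 28.9 with RAS. The highest and the lowest library were both controls. The log2 difference was 0.09 ± 0.16 (interval -0.29 to 0.47, limma adjusted p = 0.867). Beside it, the summed FPKM of 8 of 8 macrophage markers was 477 to 727 in control and 530 to 700 with RAS, with none at 0. That of 4 red cell markers found out of 5 was 516 to 938 and 881 to 2270, also with none at 0. Their part in the Hmox1 values was not tested.

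**Figure D3:**
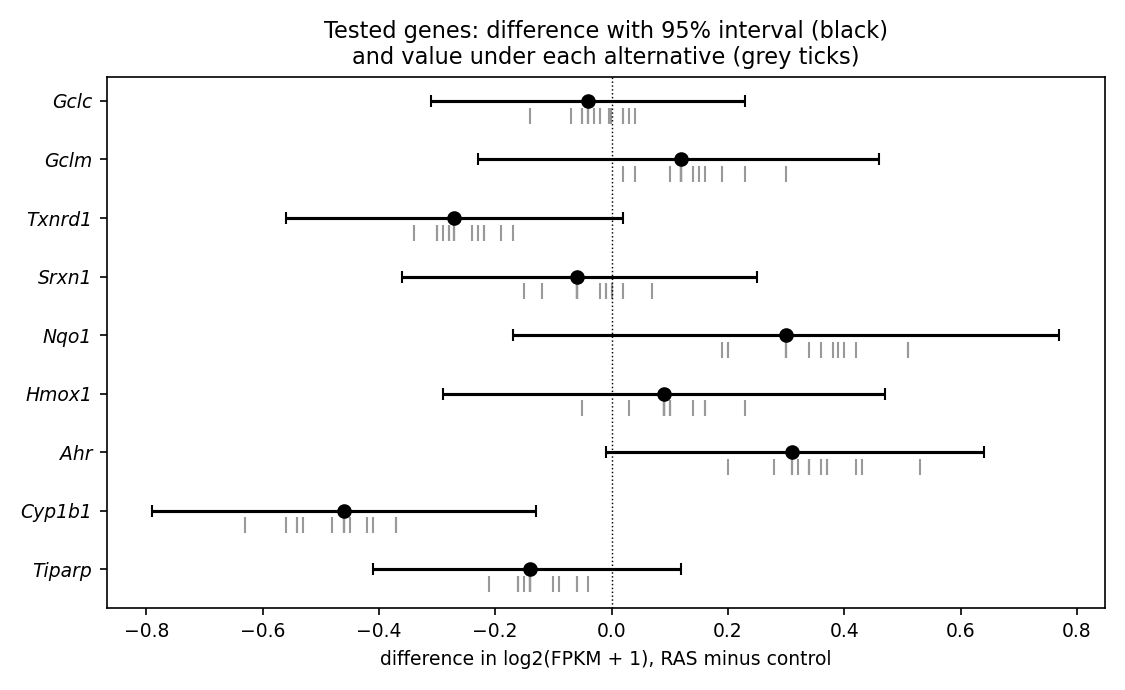
Difference in log2(FPKM + 1), RAS minus control, of the 9 tested genes with its 95% limma interval (black), and the value under each alternative processing (grey ticks). The interval of Cyp1b1, -0.79 to -0.13, lies below 0, and those of the other 8 genes include 0.

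The intervals also bound what these 6 libraries allow. For Gclc, Gclm, Srxn1, Hmox1 and Tiparp, they reached at most 0.47 on the higher side and -0.41 on the lower. For Nqo1 the upper end was 0.77. An adjusted p above the threshold does not show that the groups were alike.

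Reads of neighbouring genes could enter some of these values, since the labels name no strand-specific step. In the table, Gclm stood on a locus shared with Dnttip2 and Gm17494, Txnrd1 with Eid3, and Tiparp with 4931440P22Rik and LOC100861877. The positions printed above for these genes are those of the shared loci. In GENCODE M21 (GRCm38), Gclm ended at 122270732 and Tiparp at 65555518, before the printed ends. In that annotation, the antisense lincRNA gene Gm48236 overlapped an end of Ahr. Nqo1, Hmox1, Gclc, Srxn1, Cyp1b1 and Ahrr overlapped no other annotated gene.

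The regulators of NRF2 were examined as the first of the surrounding lists. Of 9 tested, 6 were higher and 3 lower with RAS, against 43% and 57% of all genes tested, the background for each later list too. With 0 past the threshold, their median log2 difference was 0.05, against -0.04 over all genes. That median was -0.04 without RAS 3, 0.15 without RAS 2 and 0.12 without control 2. Bach1, the repressor that occupies antioxidant response elements, was at 4.79, 4.52 and 5.47 FPKM in the controls and 5.51, 6.51 and 6.70 with RAS (log2 0.29 ± 0.12, limma adjusted p = 0.468). The groups did not overlap, though control 3 and RAS 1 were close. Sqstm1, the autophagy receptor p62 that binds KEAP1, was at 127, 127 and 125 against 146, 137 and 158 (log2 0.22, adjusted p = 0.592), also without overlap. Ranges were thus apart for 2 of the 9, both higher, against 17.9% of all genes tested (5.42% higher). Keap1 (log2 -0.09) and the small MAF gene Mafk (0.16) overlapped between groups.

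Of 26 other NRF2 targets, 25 were found and 22 tested. In this list 16 were higher and 6 lower, 0 passed, and the median was 0.10. It was -0.00 under quantile normalization, 0.04 without RAS 3, 0.05 without control 2 and 0.18 without RAS 2. Ranges were apart for 4 of the 22, against 17.9% of all genes tested. The 4 named here were taken for their small p. Osgin1, an oxidative stress-induced growth inhibitor, was at 8.48, 3.46 and 6.70 FPKM in the controls and 1.59, 1.29 and 1.79 with RAS, a log2 difference of -1.43 ± 0.27 with an adjusted p of 0.240 in limma. The RAS libraries lay close together and below all controls. Abcc1, an exporter of glutathione conjugates, was lower as well, at 15.7 ± 0.620 and 11.8 ± 2.55 (log2 -0.41, adjusted p = 0.455). On the other side were the carbonyl reductase gene Cbr3, at 8.41 ± 1.27 and 12.7 ± 1.92 (log2 0.54, adjusted p = 0.334), and the epoxide hydrolase gene Ephx1, at 52.6 ± 9.67 and 80.3 ± 12 (log2 0.61, adjusted p = 0.362). These were the 4 with ranges apart, 2 in each direction. Slc7a11, the cystine importer, lay at 0.0687 to 1.03 FPKM and was not tested.

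The partners that hold and carry AHR gave 1 higher and 3 lower of 4 tested, 0 passed, with a median of -0.19. It was -0.41 without control 1 and RAS 3 together, -0.37 without RAS 3, -0.10 without RAS 2, -0.12 without RAS 1 and -0.11 in the scaled count signal. Arnt, the partner that binds DNA with AHR, was at 16.8, 18.8 and 17.9 FPKM in the controls and 19.8, 21.2 and 19.3 with RAS (log2 0.16, limma adjusted p = 0.627). As for Ahr, the lowest RAS library lay above the highest control and RAS 2 was the highest library. Arnt was the 1 of the 4 with ranges apart, against 17.9% of all genes tested (5.42% higher). The chaperone genes Hsp90aa1 (log2 -0.37), Hsp90ab1 (-0.23) and Ptges3 (-0.16) overlapped between groups, with RAS 1 and RAS 2 below the controls and RAS 3 not.

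Of 6 other AHR targets, 3 were high enough to test, and 0 passed. Cyp1a1, the enzyme most strongly tied to AHR activation, was at 1.29, 0.971 and 0.289 FPKM in the controls and 0.784, 0.301 and 0.775 with RAS, and neither it nor Cyp1a2 was tested. Cyp1a2 was listed at 0 in all RAS libraries and in control 1, at 0.031 in control 2 and at 1.5 in control 3. The summed liver markers were highest in control 3 as well, at 159 FPKM against 9.69 to 26.0 in the other libraries, and their part in these values was not tested. The glucuronosyltransferase genes Ugt1a6a, at 23.0 ± 0.651 and 16.0 ± 2.74 FPKM (log2 -0.51, limma adjusted p = 0.332), and Ugt1a6b, at 91.8 ± 4.41 and 68.6 ± 10.5 (log2 -0.42, adjusted p = 0.416), had all 3 RAS libraries below all 3 controls. Ranges were thus apart for 2 of the 3 tested, both lower, against 17.9% of all genes tested (12.5% lower). Ugt1a7c was at 7.26 ± 0.550 and 9.89 ± 2.22 (log2 0.38). These 3 share their later exons in 1 gene cluster, so how reads were divided among them is uncertain, and they are not independent of each other.

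**Figure D4:**
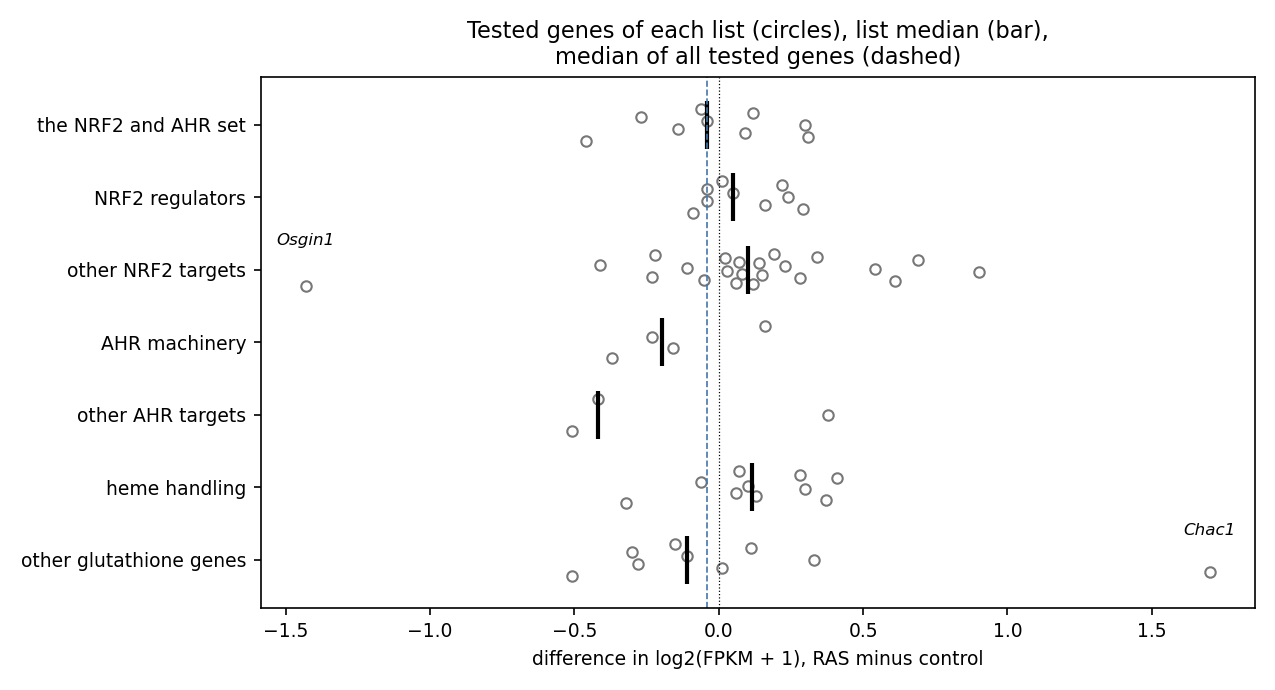
Log2 difference, RAS minus control, of every tested gene in each list (circles), with the list's median (bar) and the median of all 12606 tested genes (dashed line, -0.04). Lists held genes on both sides, and Osgin1 at -1.43 and Chac1 at 1.70 lay farthest out.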

How the data were processed

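The authors deposited 1 table with FPKM and a scaled count signal per gene and sample. Per the submitters' processing notes, TopHat2 2.0.9 and Cufflinks 2.1.1 were used. Not given in the sources used here are the build, the annotation and any filter. RAS columns were recognised by the group code in the labels' treatment protocol, and the remaining numbered columns were assigned to control by elimination. A further 4 columns were not used. Values of the deposited count signal were whole multiples of 1 value per library, within 0.02, for 98.84 to 98.95% of the values above 0. Division by that value gave estimated reads. A stricter check for 1 common step was not passed by 5 of the 6 libraries, so read numbers are estimates and no count model was run. Per library, the median of FPKM over signal was 0.975 to 1.043 of its mean.

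Table starts fitted GENCODE M21 (GRCm38) after adding 1, for 5667 genes against 430 unshifted, and are printed so. The test was limma 3.58.1 (R 4.3.3, lmFit, eBayes with a trend) on log2(FPKM + 1) for genes with a mean of at least 1 FPKM. A check on simulated data used independent libraries and differences larger than any in the set. It therefore does not bear on the detection of differences of the size seen in the set. Named genes are the 10 members, up to 4 genes with the smallest p per list (untested ones are given outside this rule) and the 3 most like Cyp1b1. Of 137 list entries, markers included, 135 were found, older symbols through NCBI gene numbers. A further list entry is not reported here. The members and lists were chosen with earlier results of these data known. Python 3.11.15, pandas 2.3.3, numpy 2.4.6 and matplotlib 3.10.9 were used.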

Additional observations from a re-analysis of the deposited data

How the results depend on the processing

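Further fits changed the pseudocount (0.1, 0.01), the minimum (none, 5 FPKM), the scaling (quantile, median-ratio), the variance model (robust) and the pairing (block), or dropped 1 library. Use of the scaled count signal, and dropping control 1 with RAS 3, were chosen after seeing the data. In all 16, 0 genes of the set passed in limma. Over all genes, leaving out 1 library gave 0 to 1 genes past the threshold on the higher side (1 without RAS 2) and 0 to 2 on the lower (2 without control 1, 1 without RAS 1), and 3 lower genes passed without control 1 and RAS 3 together. The signs of Ahr, Nqo1, Gclm, Cyp1b1, Txnrd1 and Tiparp held wherever they were tested. Gclc was 0.03 under quantile normalization, 0.02 in the count signal, 0.04 without both libraries and -0.14 to 0.02 with 1 library left out. Srxn1 was 0.00098, 0.07 without both and -0.15 to 0.02. Hmox1 was -0.05 to 0.23 with 1 library left out, the lowest without control 3. The cause was not tested. With a minimum of 5 FPKM, 2 members were higher, because Ahr and Nqo1 were no longer tested. Ahr was at 0.53 in the count signal, and the cause was not tested. It was at 0.42 and 0.43 with the smaller pseudocounts, which shrink the difference of a gene with low values less. The replicate block gave 1663 genes at an unadjusted p under 0.05, against 1294, and 0 past the threshold, and Cyp1b1 stood at an adjusted p of 0.33. Deviations of same-numbered samples correlated at 0.178, 0.096 and 0.219, each sample best with its own number, which is a hint from the data and no stated pairing. Depth limits Ahrr and Nqo1 most.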

Other observations

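Of 9 other glutathione genes tested, 4 were higher and 5 lower with RAS, 0 passed, and the median log2 difference was -0.11. It was 0.01 without control 3, -0.00 without control 1, -0.02 without RAS 2, -0.04 without RAS 1 and -0.21 without control 2. Chac1, an enzyme that cleaves glutathione and is induced by the ATF4 stress pathway, was at 1.65, 5.50 and 6.25 FPKM in controls 1 to 3 and at 11.5, 14.9 and 20.6 in RAS 1 to 3 (log2 1.70 ± 0.39, limma adjusted p = 0.274). The RAS libraries all lay above the controls, and control 1 was the lowest. Chac1 was the 1 of the 9 with ranges apart, against 17.9% of all genes tested (5.42% higher). Its relative Chac2 was at 5.40 ± 1.16 and 4.16 ± 0.427 (SD, n = 3 per group; log2 -0.30), the glutaredoxin gene Glrx at 21.4 ± 7.90 and 14.3 ± 2.34 (log2 -0.51), and Gpx4, the peroxidase of lipid hydroperoxides, at 530 ± 103 and 666 ± 146 (log2 0.33). These 3 overlapped between groups.

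Of 10 heme handling genes tested, 8 were higher and 2 lower, 0 passed, the median was 0.11 and 0 had ranges apart, against 17.9% of all genes tested. The median was 0.01 without RAS 3 and 0.21 in the scaled count signal. Alas1, the first enzyme of heme synthesis, was at 75.8 ± 14.3 and 98.4 ± 21.1 FPKM (log2 0.37), and Blvra, the biliverdin reductase that acts after HMOX1, at 24.2 ± 3.75 and 29.6 ± 5.49 (log2 0.28). Haptoglobin (Hp), which binds free hemoglobin, was at 300 ± 68.7 and 406 ± 136 (log2 0.41), and the heme-hemopexin receptor gene Lrp1 at 55.5 ± 10.1 and 44.7 ± 10.4 (log2 -0.32). Hpx lay at 3.94 FPKM in control 3 and 0.137 to 0.552 elsewhere. The summed liver markers were also highest in control 3, at 159 FPKM against 9.69 to 26.0 in the other libraries (5 of 5 markers found; Apoa1, Apoa2 and Ttr were listed at 0 in some libraries), and their part in the Hpx values was not tested.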
